A study of Homo sapiens with 12 samples.

Results

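E-cadherin, EpCAM and 3 further surface and membrane genes, the ZEB1 and ZEB2 repressors that act on the epithelial programme, and 3 miRNAs of epithelia were followed in HEK293T cells after ERI2 knockdown. HEK293T is a human embryonic kidney line that carries the SV40 large T antigen. The 10 members were taken from a given list by name: 7 of the 55765 names of a gene count table (CDH1, EPCAM, GPRC5A, ANXA1, CAV1, ZEB1 and ZEB2) and 3 of the 2588 names of a mature miRNA count table (hsa-miR-141-3p, hsa-miR-203a-3p and hsa-miR-205-5p). All 10 were found. They were chosen by their counts and fold changes in these same libraries, so their values below are a description and carry no test. All 10 passed the filter on low counts.

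The 2 groups were HEK293T cells given ERI2 siRNA and HEK293T cells given control siRNA, with 3 RNA-seq and 3 miRNA-seq libraries each. Both groups went through 2 rounds of lipid transfection at 50 nM siRNA, 48 h apart, and were collected 72 h after the second. The cells are a single line, called HEK293T in the sample label and HEK293 in the growth protocol, and ERI2, an exonuclease of the ERI1 family, was lowered and not deleted. The labels do not say whether replicates were separate cultures, so any p-value speaks of library-to-library spread, part of which may be technical.

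E-cadherin, encoded by CDH1, holds epithelial cells together at adherens junctions, and EpCAM is an adhesion molecule of many epithelia. ZEB1 and ZEB2 are zinc finger repressors that bind E-box sequences in epithelial genes, CDH1 among them. The miR-200 family, of which miR-141 is a member, silences ZEB1 and ZEB2 mRNA, and the ZEB proteins in turn repress the miR-200 genes. miR-205 also acts on both ZEB mRNAs, and miR-203 is abundant in stratified skin, where it restrains the stem cell factor TP63.

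The mature sequences show how the miRNAs relate to one another. They are given 5′ to 3′ from RefSeq (GRCh38.p14, not hg19, the build named in the submitters' processing notes), with the seed, bases 2 to 8, in capitals. The first 5 fall into 2 seed groups of the miR-200 family, and the last 4 are the miR-203 and miR-205 products.
hsa-miR-141-3p (chr12:6964155-6964176, plus strand): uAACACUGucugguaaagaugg
hsa-miR-200a-3p (chr1:1167916-1167937, plus strand): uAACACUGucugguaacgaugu
hsa-miR-200c-3p (chr12:6963742-6963764, plus strand): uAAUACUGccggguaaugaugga
hsa-miR-200b-3p (chr1:1167160-1167181, plus strand): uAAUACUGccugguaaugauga
hsa-miR-429 (chr1:1169055-1169076, plus strand): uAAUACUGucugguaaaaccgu
hsa-miR-203a-3p (chr14:104117469-104117490, plus strand): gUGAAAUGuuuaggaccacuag
hsa-miR-203b-5p (chr14:104117468-104117489, minus strand): uAGUGGUCcuaaacauuucaca
hsa-miR-203b-3p (chr14:104117428-104117450, minus strand): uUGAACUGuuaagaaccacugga
hsa-miR-205-5p (chr1:209432166-209432187, plus strand): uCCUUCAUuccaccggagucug

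miR-141-3p shares its whole seed with miR-200a-3p and differs from it at 2 of 22 positions, A17C and G22U, counted from the 5′ end with the miR-141-3p base given first. Against miR-200c-3p it has 4 substitutions over the same length, C4U, U9C, U11G and A17U, of which C4U lies in the seed. The miR-141 hairpin nevertheless sits beside that of miR-200c, with 330 bases between them, while miR-200a, miR-200b and miR-429 form the other cluster on chromosome 1. The 3 listed miRNAs have 3 different seeds. miR-203a and miR-203b are read from opposite strands of 1 locus, and 21 of the 22 bases of miR-203a-3p are complementary in a single run to miR-203b-5p. The miR-203a hairpin (chr14:104117405-104117514, plus strand) is given to show where miR-203a-3p, in capitals, lies in it.
MIR203A hairpin: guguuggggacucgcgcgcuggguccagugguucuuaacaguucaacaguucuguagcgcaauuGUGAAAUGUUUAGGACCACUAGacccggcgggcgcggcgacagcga

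RNA-seq libraries held from 29143596 to 32646277 counts with ERI2 siRNA and from 30099367 to 38306631 with control siRNA. miRNA-seq libraries held from 741800 to 1029265 counts with ERI2 siRNA and from 723224 to 808274 with control siRNA. ERI2 mRNA, which checks the labels, had 1091, 1205 and 984 counts with ERI2 siRNA and 1912, 2155 and 1562 with control siRNA (log2 fold change -0.70, SE 0.0762; edgeR adjusted p = 0.000683). At an adjusted p under 0.05, 4.29% of 18843 tested genes were higher and 4.25% lower with ERI2 siRNA, and 5.18% and 2.46% with libraries scaled to their totals. Single libraries weighed on these counts. With all 6 libraries 809 genes were higher and 800 lower, while 1424 and 1327 were so without ERI2 siRNA replicate 1 and 1221 and 1026 without control siRNA replicate 1. Leaving out any other single library gave from 176 to 299 higher and from 195 to 425 lower. Fold changes from replicate 1 alone and from replicates 2 and 3 alone are therefore given below. Replicate 1 alone sets 1 library of each group against the other, matched by number only, so its values carry no spread.

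The line carried only part of an epithelial profile. Tight junction and desmosome genes such as OCLN, TJP1, DSP and DSG2 had from 2399 to 14591 counts in each library, and the simple epithelial keratins KRT8 and KRT18 from 397 to 2199. In contrast the epithelial keratin KRT19, the factor EHF and the claudin CLDN3 were at 0 in all 6 libraries. The splicing factor ESRP1 and the transcription factor GRHL2, which maintain epithelial identity, had at most 3 counts in any library.

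Each of the 5 epithelial, annexin and caveolin mRNAs was lower in every ERI2 siRNA library than in any control siRNA library, and both ZEB mRNAs overlapped between the groups by CPM. Values in CPM are counts per 1000000 on library sizes scaled by TMM, a method that aligns the bulk of genes between libraries. By CPM, 5 of the 7 mRNAs had groups that did not overlap, all lower. Over all tested genes 15.6% did so, but the mRNAs were picked for this difference and nothing is read from that contrast. In bulk libraries fewer expressing cells cannot be told apart from less RNA per cell.

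CDH1 had 140, 165 and 138 counts with ERI2 siRNA, against 214, 248 and 209 with control siRNA. These were 4.63 ± 0.240 CPM with ERI2 siRNA and 6.69 ± 0.599 CPM with control siRNA (SD, n = 3 each), so the ERI2 siRNA level was 69.2% of the control level. The groups did not overlap, and the log2 fold change was -0.53 (SE 0.138), with -0.45 in replicate 1 alone and -0.57 in replicates 2 and 3.

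EPCAM was the scarcest of the 7 mRNAs by count, with 24, 29 and 19 counts with ERI2 siRNA and 67, 48 and 41 with control siRNA. The levels were 0.749 ± 0.117 CPM with ERI2 siRNA and 1.54 ± 0.320 CPM with control siRNA (SD, n = 3 each), a log2 fold change of -1.04 (SE 0.277). Control replicate 1 was the highest of the 6, and the difference was -1.26 in replicate 1 alone against -0.86 in replicates 2 and 3.

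GPRC5A encodes an orphan receptor induced by retinoic acid and abundant in lung epithelium. It had 359, 459 and 401 counts with ERI2 siRNA and 912, 793 and 710 with control siRNA. The levels were 12.7 ± 1.20 CPM with ERI2 siRNA and 24.0 ± 2.34 CPM with control siRNA (SD, n = 3 each). All ERI2 siRNA libraries lay well below the lowest control library. The log2 fold change was -0.91 (SE 0.105), with -1.18 in replicate 1 alone and -0.78 in replicates 2 and 3.

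ANXA1 encodes annexin A1, a calcium-dependent membrane-binding protein that limits inflammation. Its 146, 128 and 133 counts with ERI2 siRNA stood against 354, 381 and 361 with control siRNA. The level was 4.27 ± 0.426 CPM with ERI2 siRNA, 38.9% of the 10.98 ± 1.39 CPM with control siRNA (SD, n = 3 each). Of the 7 mRNAs it had the lowest log2 fold change, -1.36 (SE 0.139), and here replicate 1 gave the smaller difference, -1.11, and replicates 2 and 3 the larger, -1.48.

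CAV1 encodes caveolin-1, the main coat protein of the membrane pits called caveolae. It had 367, 368 and 292 counts with ERI2 siRNA and 580, 636 and 485 with control siRNA. Its level was 10.7 ± 1.01 CPM with ERI2 siRNA and 16.9 ± 0.345 CPM with control siRNA (SD, n = 3 each), and the groups did not overlap. The log2 fold change was -0.65 (SE 0.102), with -0.50 in replicate 1 alone and -0.73 in replicates 2 and 3.

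ZEB1 had 1899, 1706 and 1471 counts with ERI2 siRNA and 1799, 2129 and 1458 with control siRNA. Its level was 53.1 ± 6.20 CPM with ERI2 siRNA and 53.2 ± 3.77 CPM with control siRNA (SD, n = 3 each), and the groups overlapped. The log2 fold change of 0.00 (SE 0.0908) covered values of opposite sign, 0.23 in replicate 1 alone and -0.13 in replicates 2 and 3.

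ZEB2 had 2102, 2086 and 1657 counts with ERI2 siRNA and 1908, 2080 and 1594 with control siRNA. Its level was 61.1 ± 6.01 CPM with ERI2 siRNA and 55.3 ± 0.980 CPM with control siRNA (SD, n = 3 each). The groups overlapped by CPM, because ERI2 siRNA replicate 3 lay within the control range. They did not overlap per total counts, where ZEB2 was higher with ERI2 siRNA, as were 17.2% of all tested genes without overlap. The log2 fold change was 0.14 (SE 0.0809), with 0.30 in replicate 1 alone and 0.06 in replicates 2 and 3.

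**Figure D1:**
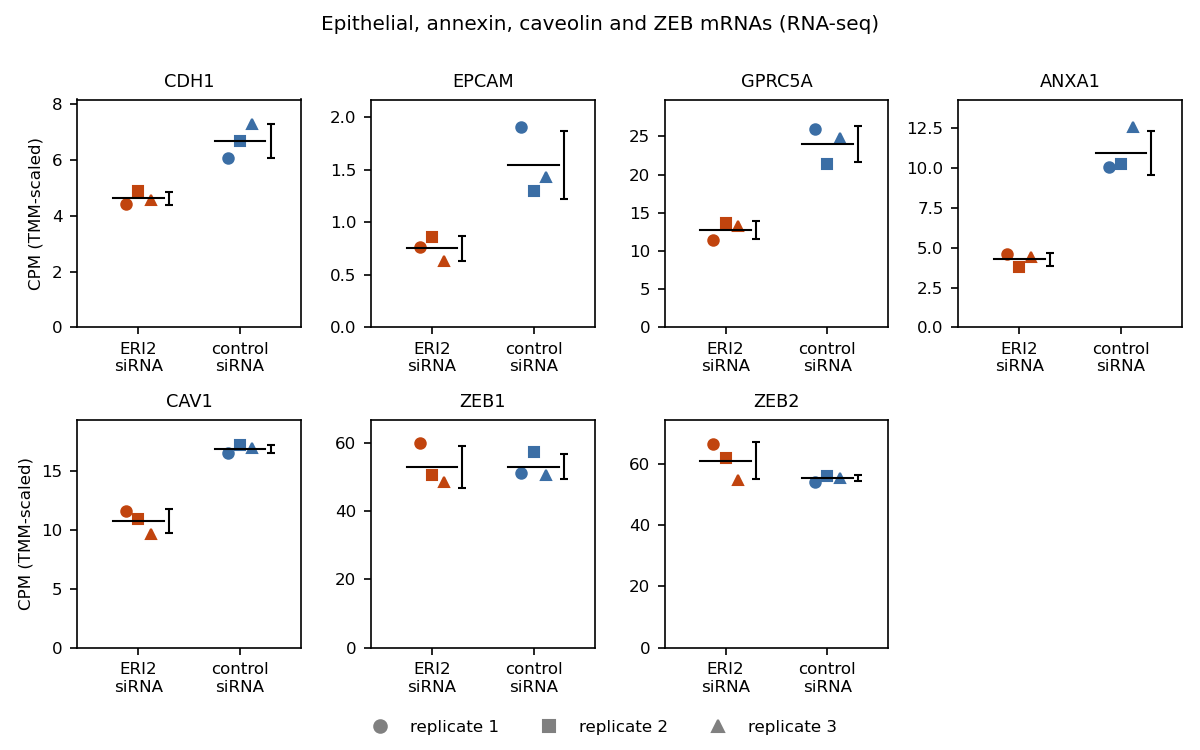
CPM (TMM-scaled) of the 7 mRNAs in each RNA-seq library, ERI2 siRNA left and control siRNA right; marker shapes give the replicate number, lines the group mean and bars the SD (n = 3). CDH1, EPCAM, GPRC5A, ANXA1 and CAV1 lie below all control libraries, while ZEB1 and ZEB2 overlap.

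Read ratios between neighbouring or paired genes do not depend on how libraries are scaled. CAV1 over its neighbour CAV2, the other caveolin of this locus, was 1.23, 1.20 and 1.13 with ERI2 siRNA and 1.6, 1.51 and 1.5 with control siRNA, so CAV1 was lower relative to CAV2 in all 3 ERI2 siRNA libraries. CDH1 over CDH2, the N-cadherin gene of mesenchymal and neural cells, was 0.0246, 0.0301 and 0.0291 with ERI2 siRNA and 0.0320, 0.0358 and 0.0395 with control siRNA. These groups did not overlap either, but CAV1 and CDH1 were picked by their fold changes and nothing is read from these ratios.

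CDH1 over CDH3, the P-cadherin gene beside it, was 3.33, 3.51 and 3.14 with ERI2 siRNA and 3.69, 3.76 and 3.60 with control siRNA, a smaller gap. ZEB1 over ZEB2 was 0.903, 0.818 and 0.888 with ERI2 siRNA and 0.943, 1.02 and 0.915 with control siRNA, lower in the ERI2 siRNA libraries. The ratios are of reads and not per length, so they compare libraries and not the abundance of the 2 genes. The choice of members by their values bears on these ratios too.

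Among neighbours and relatives, ANXA2, another annexin, passed the test. It fell to 119 ± 10.8 CPM with ERI2 siRNA, against 178 ± 17.8 CPM with control siRNA (SD, n = 3 each; log2 fold change -0.59, SE 0.0881, edgeR adjusted p = 0.0033). ANXA2 has near-identical processed copies in the genome, so its count is uncertain. CAV2 (log2 fold change -0.28, edgeR adjusted p = 0.118), CDH3 (-0.38, 0.285) and CDH2 (-0.17, 0.150) did not pass, nor did GPRC5B (-0.21, 0.199) and GPRC5C (-0.12, 0.627), relatives of GPRC5A. The mesenchymal filament gene VIM measured 736 ± 98.6 CPM with ERI2 siRNA and 924 ± 62.4 CPM with control siRNA (SD, n = 3 each; edgeR adjusted p = 0.0713). ZEB1-AS1, antisense to ZEB1, had a log2 fold change of -0.36 (edgeR adjusted p = 0.134). No source used here gives the strand setting, so reads of ZEB1 and ZEB1-AS1 may be mixed. ZEB2-AS1, with 8, 7 and 13 counts with ERI2 siRNA and 5, 4 and 1 with control siRNA, was too low to be tested.

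Other genes of the same roles were read from lists that leave out the 7 mRNAs. These lists and those further below were chosen with earlier results of these data known. Their shares beside those of all genes are therefore a description. Of 30 tested epithelial junction genes 4 fell and none rose: F11R, a tight junction adhesion molecule (log2 fold change -0.45), the desmosomal cadherins DSG2 (-0.39) and DSC3 (-0.30), and CTNNA1 (-0.29), the alpha-catenin that ties E-cadherin to actin. F11R measured 68.1 ± 1.25 CPM with ERI2 siRNA and 93.2 ± 5.28 CPM with control siRNA (SD, n = 3 each). The remaining 26 did not pass, and the list median was -0.14, against 0.003 over all tested genes. At 13.3% its share of falls stood beside 4.25% over all genes, and its 0 rises beside 4.29%.

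Of 16 other tested epithelial genes, the tetraspanin CD9 (-0.33) and KRT18 (-0.27) fell and none rose, with a median of -0.15. Here 12.5% fell, beside 4.25% of all genes. KRT18 also has many processed copies. The 6 falls of both lists had edgeR adjusted p from 0.0038 to 0.048. Their fold changes were smaller than that of CDH1, but CDH1 was picked by its fold change and nothing is read from that.

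Annexins and their S100 partners, which bridge annexins into complexes, held 5 falls among 9 tested genes and no rise. That was 55.6% falls, beside 4.25% of all genes. Besides ANXA2 they were ANXA4 (-0.51), S100A10 (-0.48), the ANXA2 partner, S100A11 (-0.50), a partner of ANXA1, and ANXA6 (-0.26), with edgeR adjusted p from 0.0033 to 0.0343. All 9 log2 fold changes were below 0, with a median of -0.26. ANXA1, at -1.36, was below all of them, but it was picked by its fold change and nothing is read from that.

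Of 11 tested caveola and flotillin genes only FLOT2 (-0.36, edgeR adjusted p = 0.0212) fell and none rose, so 9.09% fell beside 4.25% of all genes, and the coat gene PTRF, which works with CAV1, measured -0.31 (adjusted p = 0.109). Of 15 GPRC5 and retinoic acid genes 2 fell and none rose, so 13.3% fell beside 4.25% of all genes. The falls were DHRS3 (-0.49), a retinal reductase, and RARB (-0.40), a retinoic acid receptor (edgeR adjusted p = 0.00438 and 0.0123). The list median was -0.11, and 13 genes did not pass. Retinoic acid induces RARB, as it does GPRC5A, but a part of retinoic acid in the lower GPRC5A was not tested.

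Mesenchymal genes were read the same way. Of 20 tested, FN1 (-0.47), SPARC (-0.44) and ITGB1 (-0.26), a matrix protein, a matrix-binding protein and an integrin, fell and none rose. The list median was -0.18, and 15% fell beside 4.25% of all genes. The falls had edgeR adjusted p from 0.0050 to 0.0360. Of 16 transcription factors of epithelial-mesenchymal transition, SNAI2 (-0.55, edgeR adjusted p = 0.0128), another repressor of CDH1, was the sole fall and none rose, so 6.25% fell beside 4.25% of all genes. SNAI2 measured 8.59 ± 0.768 CPM with ERI2 siRNA and 12.5 ± 0.854 CPM with control siRNA (SD, n = 3 each). Among 13 genes of ZEB cofactors the corepressor CTBP1 (0.28, edgeR adjusted p = 0.0441) rose, and the acetyltransferase KAT2B (-0.37, edgeR adjusted p = 0.0104) fell. Each was 7.69% of the list, beside 4.29% higher and 4.25% lower among all genes. The CTBP1 rise was lost, leaving 0 rises in this list, without any one library other than ERI2 siRNA replicate 1.

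With all 6 libraries and TMM, CTBP1 and ZFPM2, named below, were the rises in the RNA-seq lists. Over all tested genes 4.29% rose, and with lists this short nothing is read from 0 rises. In the lists where edgeR gave 0 rises, DESeq2 and limma-voom also gave none, and at an unadjusted edgeR p under 0.05 the mesenchymal, fibroblast and miR-205 target lists held 1 rise each and the others 0. Scaled to library totals, KRT18, ITGB1, ANXA6, ITGA6, LASP1 and LRP1 no longer passed (edgeR adjusted p from 0.0527 to 0.140). The falls depended on single libraries. Without control siRNA replicate 3, ERI2 siRNA replicate 2 or ERI2 siRNA replicate 3 the junction and annexin lists had 2 falls each, and without control siRNA replicate 2 the annexin list had 3. The mesenchymal list had 7 falls without ERI2 siRNA replicate 1 and 1 without ERI2 siRNA replicate 2. Replicates 2 and 3 alone gave 10 falls among junction genes, 7 among annexin and S100 genes and 7 among mesenchymal genes, and 1 rise each in the junction, mesenchymal, fibroblast, HEK293 lineage, miR-203 target and miR-205 target lists. The miR-205 target list also had 1 rise with total library size and 1 without ERI2 siRNA replicate 1.

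The shorter lists lost all their falls in several of these fits. Without control siRNA replicate 3, ERI2 siRNA replicate 2 or ERI2 siRNA replicate 3, 0 genes fell among the other epithelial genes, the transition factors, the caveola genes, the miR-203 targets, the keratinocyte genes and the HEK293 lineage genes. Without control siRNA replicate 2 the caveola and keratinocyte lists had 0 falls as well. The ZEB cofactor fall was lost without ERI2 siRNA replicate 2 or 3, and the miR-205 target fall without control siRNA replicate 3 or ERI2 siRNA replicate 2. The transition factors had 3 falls with DESeq2 and 4 without ERI2 siRNA replicate 1. Targets of miR-141 and miR-200 had from 1 to 7 falls with single libraries left out, and the ZFPM2 rise was lost without ERI2 siRNA replicate 2 or 3.

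**Figure D2:**
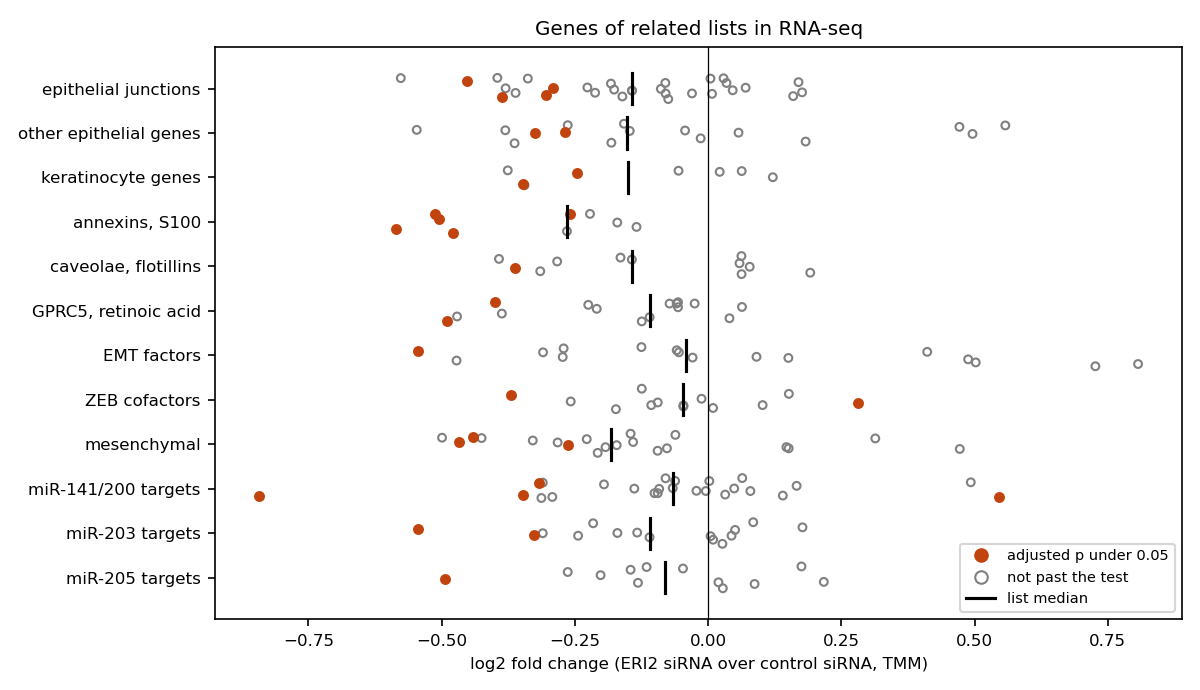
Log2 fold change (horizontal axis, ERI2 siRNA over control siRNA) of each tested gene in 12 related lists; filled points passed an adjusted p under 0.05, open points did not, and black lines are list medians. The annexin and S100 list has the lowest median, -0.26, and the EMT factor list the highest, -0.04.

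Several defining markers of other cell types were absent. Of 21 keratinocyte and squamous genes 6 were at 0 in every library, KRT5, KRT6A, TP63 and IVL among them. Of the 8 that were tested, PERP (-0.35) and ITGA6 (-0.25) fell (edgeR adjusted p = 0.0232 and 0.0406). So 25% fell, beside 4.25% of all genes. The summed level of that list ran from 346 to 352 CPM with ERI2 siRNA and from 368 to 396 CPM with control siRNA. Of 11 fibroblast genes, COL1A2 and THY1 were at 0 in every library. COL3A1 (-1.05) and FBN1 (-0.35) fell among 5 tested (edgeR adjusted p = 0.0099 and 0.0123), 40% beside 4.25% of all genes. The fibroblast sums were 62.2 to 66.1 CPM with ERI2 siRNA and 75.1 to 84.9 CPM with control siRNA. Of 10 blood genes CD3E and HBB were at 0 and none of 4 tested passed with edgeR, DESeq2 or limma-voom (1 at an unadjusted edgeR p under 0.05), with sums of 3.89 to 4.53 CPM with ERI2 siRNA and 3.94 to 5.96 CPM with control siRNA.

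Of 9 neuronal and embryonic kidney genes that HEK293 lines express in part, NEFL (-0.50) and INA (-0.49) fell (edgeR adjusted p = 0.0137 and 0.0274). That was 22.2% of the list, beside 4.25% of all genes. The sums were 69.4 to 80.9 CPM with ERI2 siRNA and 86.6 to 102 CPM with control siRNA. The part of these shifts in the lower CDH1, EPCAM, ANXA1, CAV1 and GPRC5A was not tested.

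Genes with the pattern most like 3 of the members over the 6 RNA-seq libraries were found by Pearson's r of log2 CPM among genes of at least 10 CPM. For CDH1 they were CTDSP2 (0.998), FITM2 (0.996) and PIKFYVE (0.995), and for ANXA1 they were CEP41 (0.997), TNKS (0.996) and TMEM256 (0.996). For ZEB1 they were DYRK1A (0.991), SBDS (0.985) and CCDC132 (0.985). With 6 libraries, r above 0.9 was common: 578 of 10315 genes reached it with CDH1, 663 with ANXA1 and 187 with ZEB1.

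In miRNA-seq the read counts were low. What the libraries were scaled to decided the direction of miR-141-3p and the size of the differences in miR-203a-3p and miR-205-5p. miR-205-5p had 51, 56 and 57 reads with ERI2 siRNA and 20, 17 and 10 with control siRNA. miR-203a-3p had 31, 19 and 31 reads with ERI2 siRNA and 4, 6 and 6 with control siRNA. miR-141-3p had 14, 12 and 17 reads with ERI2 siRNA and 11, 8 and 13 with control siRNA. As raw reads the groups of miR-205-5p and miR-203a-3p were far apart, and those of miR-141-3p overlapped. Raw reads are not corrected for library totals. Per total reads, 76.3% of all tested names were higher with ERI2 siRNA with groups that did not overlap.

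Summed over a group, miR-203a-3p had 81 reads (exact 95% Poisson interval 64.3 to 101) with ERI2 siRNA and 16 (9.15 to 26.0) with control siRNA. miR-205-5p had 164 (140 to 191) with ERI2 siRNA and 47 (34.5 to 62.5) with control siRNA, and miR-141-3p had 43 (31.1 to 57.9) with ERI2 siRNA and 32 (21.9 to 45.2) with control siRNA. The intervals cover counting error only, since reads without molecular tags are not independent molecules. By summed reads the 3 names ranked 1200 (miR-141-3p), 1059 (miR-203a-3p) and 729 (miR-205-5p) of 2588.

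**Figure D3:**
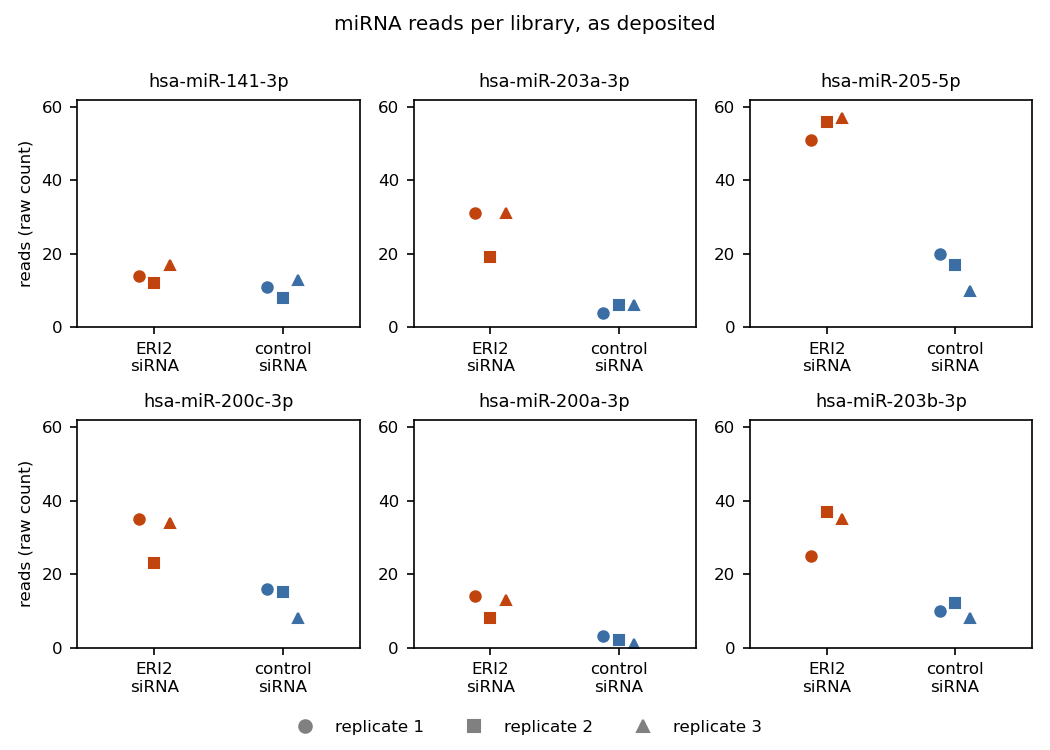
Raw reads per miRNA-seq library for miR-141-3p, miR-203a-3p and miR-205-5p (top) and for miR-200c-3p, miR-200a-3p and miR-203b-3p (bottom), ERI2 siRNA left and control siRNA right, all on 1 scale; marker shapes give the replicate number. miR-205-5p reaches 57 reads with ERI2 siRNA and at most 20 with control siRNA, while the groups of miR-141-3p overlap at 12 and 13 reads.

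The summed share of the names with a mean of at least 500 reads was lower in the ERI2 siRNA libraries, from 86.4% to 87.8%, against 92.2% to 92.4% in control siRNA libraries. The highest name, miR-10a-5p, took from 8.49% to 11.9% of reads with ERI2 siRNA and from 24.3% to 25.5% with control siRNA. Names with a mean under 50 reads took from 3.06% to 3.47% with ERI2 siRNA and from 1.62% to 1.68% with control siRNA. TMM, which aligns the bulk of names, gave factors of 1.45 to 1.63 with ERI2 siRNA and 0.639 to 0.677 with control siRNA. The median log2 fold change of all 1316 tested names was 0.05 with TMM and 1.27 per total reads, so the values of the 3 miRNAs below are given on both scales. RPM stands for reads per 1000000 of the unscaled library total.

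With TMM, miR-141-3p was at 10.5 ± 1.32 CPM with ERI2 siRNA and 21.5 ± 5.90 CPM with control siRNA (SD, n = 3 each), a log2 fold change of -1.02 (SE 0.304). Per total reads it was at 15.9 ± 2.22 RPM with ERI2 siRNA and 14.01 ± 3.78 RPM with control siRNA (SD, n = 3 each), and the log2 fold change turned to 0.19. The groups did not overlap on the TMM scale and overlapped per total reads. Against the median of all names, miR-141-3p was lower on both scales. The change of scale moved it and that median by nearly the same amount, so agreement between the scales adds nothing.

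miR-203a-3p was at 19.5 ± 3.26 CPM with ERI2 siRNA and 10.9 ± 3.06 CPM with control siRNA by TMM (SD, n = 3 each; log2 fold change 0.87, SE 0.336). Per total reads it was at 29.5 ± 3.66 RPM with ERI2 siRNA and 7.03 ± 1.81 RPM with control siRNA (SD, n = 3 each; log2 fold change 2.08). It was higher in every ERI2 siRNA library on both scales. The TMM difference was 1.28 in replicate 1 alone and 0.55 in replicates 2 and 3.

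miR-205-5p was at 40.4 ± 6.03 CPM with ERI2 siRNA and 31.0 ± 8.28 CPM with control siRNA by TMM (SD, n = 3 each; log2 fold change 0.35, SE 0.244), where the groups overlapped. Per total reads it was at 61.8 ± 13.0 RPM with ERI2 siRNA and 20.3 ± 5.71 RPM with control siRNA (SD, n = 3 each; log2 fold change 1.58), where they did not. The TMM difference was -0.08 in replicate 1 alone and 0.56 in replicates 2 and 3. By TMM 1 of the 3 miRNAs was lower and 1 higher with groups that did not overlap, beside 26% lower and 21.5% higher among all tested names. Per total reads 2 were higher, beside 76.3% of all tested names.

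On the TMM scale all tested names formed 2 bands, and the 3 miRNAs lay in different places. With TMM, 1001 of 1316 names lay above a log2 fold change of -0.5, 199 below -1.5 and 116 between these limits, which were set after the values were seen. miR-203a-3p and miR-205-5p lay in the upper band and miR-141-3p between the bands. Among the 720 tested names under 50 mean reads, 13.3% had a smaller TMM log2 fold change than miR-141-3p, 75.3% than miR-205-5p and 94.7% than miR-203a-3p. The 3 miRNAs were picked by their values in these libraries, so nothing is read from these places. In addition, miR-203a-3p passed the filter on low counts only through its ERI2 siRNA libraries, as other scarce names may have.

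**Figure D4:**
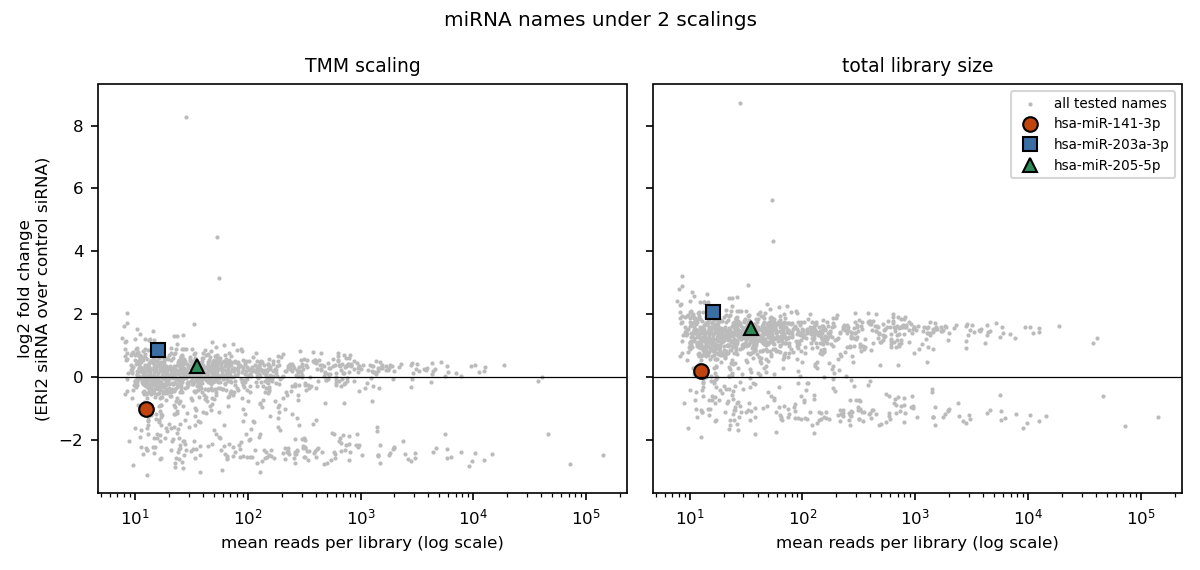
Log2 fold change (vertical axis, ERI2 siRNA over control siRNA) against mean reads per library (log axis) for 1316 miRNA names, under TMM (left) and total library size (right). Most names lie in an upper band that moves from near 0 to above 1 with the scaling; miR-141-3p (circle) lies between the bands, miR-203a-3p (square) and miR-205-5p (triangle) in the upper one.

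Other products of the same families were as scarce. miR-200c-3p, the cluster neighbour of miR-141, had 35, 23 and 34 reads with ERI2 siRNA and 16, 15 and 8 with control siRNA, and did not pass with TMM (log2 fold change -0.22, edgeR adjusted p = 0.604), while per total reads it was higher (0.995, adjusted p = 0.0020), as were 78.3% of all names. miR-200a-3p, which shares the seed of miR-141-3p, had 14, 8 and 13 reads with ERI2 siRNA and 3, 2 and 1 with control siRNA. miR-200b-3p had 4, 0 and 3 reads with ERI2 siRNA and 3, 3 and 2 with control siRNA, and miR-429 had 6, 6 and 6 with ERI2 siRNA and 4, 2 and 3 with control siRNA. These names and the 5p products of the family were too low to be tested. No source used here says how reads of such similar sequences were assigned.

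The ratio of miR-141-3p to miR-200c-3p reads was 0.40, 0.52 and 0.50 with ERI2 siRNA and 0.69, 0.53 and 1.63 with control siRNA. Control replicate 3 was the farthest of the 6. The ratio was lower in all 3 ERI2 siRNA libraries and needs no scaling. The groups nearly met, at 0.522 in ERI2 siRNA replicate 2 and 0.533 in control siRNA replicate 2. Each value rests on 8 to 35 reads of either miRNA. miR-141-3p was also picked by its values in these libraries, so nothing is read from this gap.

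miR-203b-3p, from the strand opposite miR-203a, had 25, 37 and 35 reads with ERI2 siRNA and 10, 12 and 8 with control siRNA (0.25 by TMM, edgeR adjusted p = 0.606; 1.46 per total reads). miR-203b-5p had 15, 13 and 15 reads with ERI2 siRNA and 5, 3 and 4 with control siRNA (0.38 by TMM, edgeR adjusted p = 0.553; 1.58 per total reads). The ratio of miR-203a-3p to miR-203b-3p overlapped between groups, at 1.24, 0.51 and 0.89 with ERI2 siRNA and 0.40, 0.50 and 0.75 with control siRNA. miR-205-3p had 3, 4 and 1 reads with ERI2 siRNA and 1, 0 and 2 with control siRNA.

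Other miRNAs of epithelia, most of them better expressed, were also measured. All 10 tested names of that list fell by TMM, with a median of -2.47, beside 23% of all tested names that were lower and 11.1% higher. That base mixes abundances. Of 177 names with a mean of at least 500 reads 62 were lower and 53 higher, and of 720 under 50 reads 119 were lower and 30 higher. The band below -1.5 also held abundant names from outside this list, such as miR-10a-5p, let-7a-5p and miR-16-5p. Whether the falls were particular to miRNAs of epithelia was not tested. miR-182-5p, of a sensory and epithelial cluster, fell to 4311 ± 823 CPM with ERI2 siRNA, against 27369 ± 2739 CPM with control siRNA, and miR-192-5p, a kidney and gut miRNA, to 1405 ± 309 CPM with ERI2 siRNA, against 8290 ± 585 CPM with control siRNA (SD, n = 3 each). Their log2 fold changes were -2.67 and -2.56 by TMM, and -1.45 and -1.34 per total reads. miR-31-5p, with 22, 18 and 31 reads with ERI2 siRNA and 50, 37 and 39 with control siRNA, had a log2 fold change of -2.27 by TMM and -1.06 per total reads, at a mean count close to that of miR-205-5p. The 10 had edgeR adjusted p of at most 2.78e-05. Per total reads 9 of the 10 were lower, with a median of -1.25, beside 13.6% of all names, and miR-375 no longer passed (0.04, edgeR adjusted p = 0.781). Of 10 tested mesenchymal miRNAs 9 fell by TMM and none rose, with a median of -2.49, while per total reads 9 were lower and 1, miR-214-3p, was higher, with a median of -1.28.

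The RNA-seq table lists several of the miRNA genes themselves. Of these, MIR141, MIR200C, MIR200A, MIR200B, MIR429, MIR203 and MIR205HG had 0 counts in all 6 RNA-seq libraries.

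miRNAs with the pattern most like miR-141-3p over the 6 libraries, among names with at least 10 mean reads, were miR-5689 (Pearson's r 0.987), miR-499a-5p (0.966) and miR-4724-5p (0.966). Of 1285 names 64 had r above 0.9.

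Messenger RNAs reported as targets of the 3 miRNAs, other than the listed genes, formed 3 further lists. Of 25 tested targets of the miR-141 and miR-200 family, the Notch ligand JAG1 (-0.84), the actin linker MSN (-0.35) and CRTAP (-0.32), a collagen-modifying factor, fell and the GATA cofactor ZFPM2 (0.55) rose, with edgeR adjusted p from 0.0014 to 0.0264. Their list median was -0.07. In this list 12% fell beside 4.25% of all genes, and 4% rose beside 4.29%. Of 15 tested miR-203 targets SNAI2 and LASP1 (-0.33), an actin-binding protein (edgeR adjusted p = 0.0258), fell and none rose, with a median of -0.11. That was 13.3% falls, beside 4.25% of all genes. Of 12 tested miR-205 targets the lipoprotein receptor LRP1 (-0.49, edgeR adjusted p = 0.0269) fell and none rose, with a median of -0.08. Here 8.33% fell beside 4.25% of all genes. TP63, the miR-203 target of skin, was at 0.

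**Figure D5:**
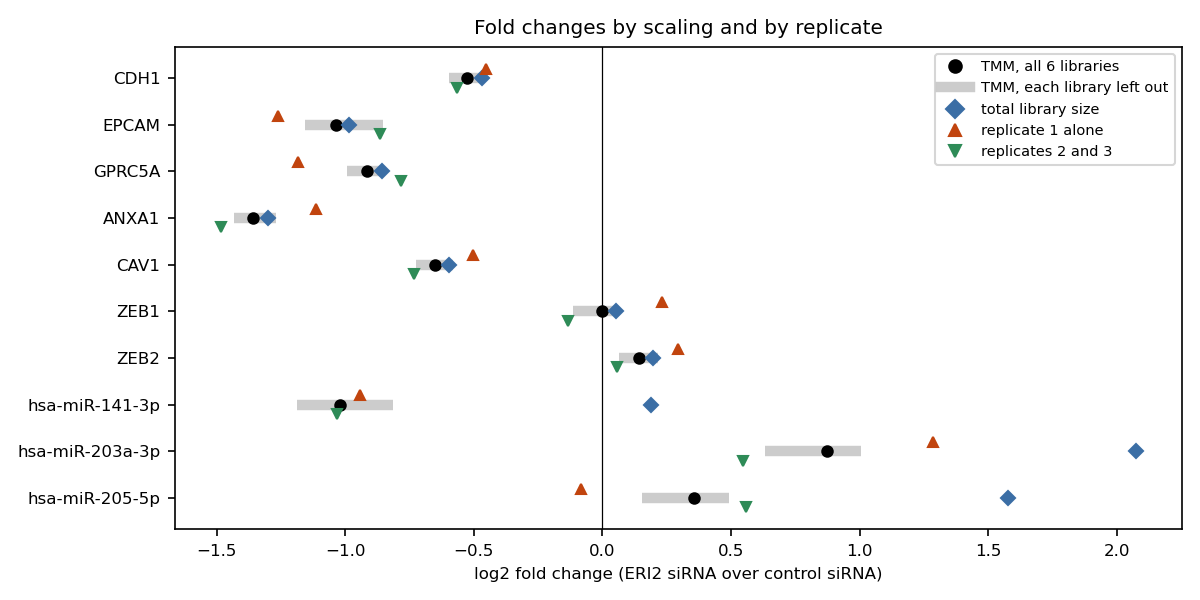
Log2 fold change (horizontal axis, ERI2 siRNA over control siRNA) of the 10 members with TMM and all 6 libraries (circles), with each library left out in turn (grey bars), by total library size (diamonds), in replicate 1 alone (upward triangles) and in replicates 2 and 3 (downward triangles). The mRNAs move little with scaling, while miR-141-3p runs from -1.02 to 0.19 and miR-203a-3p from 0.87 to 2.08.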

How the data were processed

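The authors deposited 2 tables of raw counts, read counts per gene name and per mature miRNA name, with 0 columns that matched no sample. HTSeq 0.6.1p1, TopHat2 2.0.10, CASAVA 1.8.2 and hg19 are named, without roles, per the submitters' processing notes. No source used here gives the strand setting, annotation release, small RNA kit or miRNA aligner.

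In R 4.3.3, each assay was fitted by itself: filterByExpr removed low counts, TMM scaled the libraries, and edgeR 4.0.16 gave robust quasi-likelihood tests of ERI2 siRNA against control siRNA over 18843 genes and 1316 miRNA names, with Benjamini-Hochberg adjustment over all of them and a threshold of 0.05. SEs are those implied by the F statistic. The fit was tested on simulated data. Changes there went up or down at random, without the composition shift of the miRNA-seq libraries, so that run says nothing on miRNA scaling. Within groups, every pair of replicates differed beyond counting noise; the smallest chi-square over its degrees of freedom was 5.00 for RNA-seq and 2.07 for miRNA-seq.

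The members and lists were chosen with earlier results of these data known. Named were the 10 members and ERI2, their relatives, at most 6 list genes past the test by p, the measured miR-200, miR-203 and miR-205 products, and the 3 names most like a member by Pearson's r of log2 CPM (prior count 2). Other list genes named for their level or for a value of 0 (OCLN, TJP1, DSP, KRT8, PTRF, miR-31-5p and those at or near 0) were chosen after their values were seen. Of 16 mature names 14 matched RefSeq sequences. Alternatives were DESeq2 1.42.0, limma-voom (limma 3.58.1), RLE size factors, total library size, other count filters, a block for replicate number, and fits without miR-10a-5p, without each library in turn or without replicate 1; replicate 1 alone was added after the data were seen. Lists were matched by symbol, and 1 listed gene is not reported here.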

Additional observations from a re-analysis of the deposited data

How the results depend on the processing

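With 3 libraries a group, the log2 fold changes of CDH1, EPCAM, GPRC5A, ANXA1 and CAV1 stayed below 0 and those of ZEB2 and miR-203a-3p above 0 under every alternative run. ZEB1 ran from -0.13 to 0.23; in replicate 1 alone it turned to 0.23 and miR-205-5p to -0.084, and miR-141-3p turned to 0.19 by total library size. With each library left out, genes higher ranged from 176 to 1424 and lower from 195 to 1327, and miRNA names higher from 74 to 146 and lower from 278 to 328 (84 higher without control siRNA replicate 1 and 74 without control siRNA replicate 3); falls ranged from 2 to 6 among junction genes, from 1 to 7 among mesenchymal genes, from 2 to 6 among annexin and S100 genes and stayed at 10 among epithelial miRNAs. Against 809 genes higher and 800 lower, total library size left 463 lower, no filter gave 1290 higher, and replicates 2 and 3 alone gave 2622 higher and 2670 lower, with 10 junction and 7 mesenchymal falls. No filter gave 5 mesenchymal falls. Against 146 miRNA names higher and 303 lower, total library size gave 1031 and 179, and no filter 223 higher. With the replicate number as a block, 105 genes were higher and 98 lower, with 1 fall each in the junction, mesenchymal and annexin lists and 0 rises in every RNA-seq list. Same-numbered RNA-seq libraries did not deviate together (r from -0.30 to -0.08). These deviations are from means of 3 libraries, so they cannot tell whether same-numbered libraries shared a culture or batch. The causes of these shifts were not tested. At 4 to 57 reads, counting error limits each miRNA value.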
